A study of Homo sapiens with 12 samples.

Results

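The genes of antigen presentation described here were HLA-B, HLA-C, HLA-E, B2M, TAP1, TAP2, TAPBP, CD74 and NLRC5. They were taken by symbol from the deposited gene count table, and all 9 of 9 symbols were found among its 58735 genes. All 9 also passed the filter on low counts, which left 15378 genes for testing. RNA was sequenced from Ovcar8, a human cell line derived from high-grade serous carcinoma of the ovary, in 4 groups of 3 libraries. The first group overexpressed CCNE1, the gene of cyclin E1, and carried short hairpin RNA shTMLHE #1 against TMLHE, an enzyme at the start of carnitine synthesis. The second overexpressed CCNE1 and carried an independent hairpin, shTMLHE #2. The third overexpressed CCNE1 alone, and the fourth was labelled control. By the labels every group, control included, went through lentiviral transduction and puromycin selection, and all groups came from this 1 line grown in culture. The design set CCNE1 overexpression against control and each hairpin against CCNE1 overexpression.

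Class I molecules show peptides from inside the cell to CD8 T cells. A polymorphic heavy chain (such as HLA-B or HLA-C, or the less variable HLA-E, a ligand of the NKG2A receptor of natural killer cells) pairs with the light chain beta-2-microglobulin, encoded by B2M. The proteasome cuts the peptides, the transporter formed by TAP1 and TAP2 carries them into the endoplasmic reticulum, and tapasin, encoded by TAPBP, holds the empty heavy chain at the transporter. NLRC5 is the transactivator of class I genes, as CIITA is of class II genes. CD74 is the invariant chain, which blocks the groove of class II molecules on their way to the endosome, and it is also a receptor of the cytokine MIF. Interferon gamma raises most of these genes, in part through IRF1, and tumours often lower them.

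Depth and labels were as follows. Total counts per library were 14945893 to 16302525 with shTMLHE #1, 14558444 to 19945180 with shTMLHE #2, 15814583 to 21457503 with CCNE1 alone and 14054101 to 16616963 in control. Levels are in CPM, counts scaled to the TMM-normalised size of the library, given as mean ± SD of 3 libraries. CCNE1 stood at 1269 ± 49.0 CPM with shTMLHE #1, 847 ± 21.2 CPM with shTMLHE #2, 1001 ± 34.0 CPM with CCNE1 alone and 33.1 ± 1.28 CPM in control. TMLHE stood at 0.956 ± 0.286 CPM with shTMLHE #1, 0.482 ± 0.241 CPM with shTMLHE #2, 15.7 ± 2.69 CPM with CCNE1 alone and 16.5 ± 1.62 CPM in control, so both targets followed the labels. Of 9 ovarian and epithelial markers 7 were tested, with PAX8 and the keratins KRT7, KRT8 and KRT18 among them, while MUC16 had no count in any library. WT1 was under the filter, at 0 to 12 counts per library. The other tested markers were low, with group means of 2.51 to 3.27 CPM for EPCAM, 1.18 to 3.74 for CDH1 and 5.36 to 9.59 for MUC1. The 12 libraries are counted as 3 replicates a group because their labels number them so. Nothing says that they were separate cultures, and the p-values measure only the spread between these libraries.

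The start regions of the genes are shown first, since such regions hold elements by which class I genes are known to be induced. Whether these elements had a part in any change described below was not tested. The RefSeq promoter table of GRCh38.p14 held 7 of the 9 genes, each with 300 bases from 250 before to 50 after the start. HLA-E and NLRC5 were the genes without an entry. Sequences run 5′ to 3′ along the gene, and capitals mark a match to any of 4 motifs on either strand. These were AANNGAAA, the core that interferon regulatory factors bind, CCAAT, the core of the Y box, TGACG, the core of the X2 box and of CREB sites, and a kappaB motif that reads GGG, NN, TT, N and CC without gaps, where N is any base. No match to 1 motif overlapped a match to another in these 7 promoters. HLA-B lies on the minus strand, and its window is chr6:31357130-31357429. The window of HLA-C, also on the minus strand, is chr6:31272043-31272342. The window of B2M, on the plus strand, is chr15:44711267-44711566. TAP1 is on the minus strand with chr6:32853655-32853954, the farther upstream of its 2 entries, and TAP2 is on the minus strand with chr6:32838690-32838989. CD74 is on the minus strand with chr5:150412861-150413160.
HLA-B: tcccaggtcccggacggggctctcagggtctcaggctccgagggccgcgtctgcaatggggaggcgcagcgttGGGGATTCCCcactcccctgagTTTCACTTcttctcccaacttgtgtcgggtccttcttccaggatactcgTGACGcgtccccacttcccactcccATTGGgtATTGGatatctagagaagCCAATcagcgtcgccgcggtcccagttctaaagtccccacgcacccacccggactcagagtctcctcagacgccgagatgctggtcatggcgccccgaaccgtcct
HLA-C: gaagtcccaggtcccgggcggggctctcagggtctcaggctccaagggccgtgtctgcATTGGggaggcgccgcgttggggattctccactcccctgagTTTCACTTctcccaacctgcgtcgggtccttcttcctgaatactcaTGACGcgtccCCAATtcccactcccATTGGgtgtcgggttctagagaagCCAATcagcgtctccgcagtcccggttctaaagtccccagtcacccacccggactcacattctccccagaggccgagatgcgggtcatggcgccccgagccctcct
B2M: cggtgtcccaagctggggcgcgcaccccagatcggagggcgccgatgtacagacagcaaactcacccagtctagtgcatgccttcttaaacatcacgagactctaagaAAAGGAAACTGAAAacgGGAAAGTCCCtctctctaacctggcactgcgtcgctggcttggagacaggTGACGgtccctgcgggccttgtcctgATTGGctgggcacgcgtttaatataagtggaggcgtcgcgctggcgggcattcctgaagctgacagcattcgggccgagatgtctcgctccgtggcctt
TAP1: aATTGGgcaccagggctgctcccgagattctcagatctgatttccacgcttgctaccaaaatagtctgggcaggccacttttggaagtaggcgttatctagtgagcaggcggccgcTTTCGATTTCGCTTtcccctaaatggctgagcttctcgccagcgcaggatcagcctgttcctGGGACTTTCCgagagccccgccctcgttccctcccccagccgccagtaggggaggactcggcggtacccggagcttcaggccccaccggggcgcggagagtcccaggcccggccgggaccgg
TAP2: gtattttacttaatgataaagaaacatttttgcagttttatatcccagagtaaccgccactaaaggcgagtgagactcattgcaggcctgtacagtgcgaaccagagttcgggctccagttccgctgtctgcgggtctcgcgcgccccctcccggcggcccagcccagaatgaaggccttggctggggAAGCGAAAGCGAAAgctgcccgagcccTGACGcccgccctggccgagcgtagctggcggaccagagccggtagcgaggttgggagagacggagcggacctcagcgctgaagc
CD74: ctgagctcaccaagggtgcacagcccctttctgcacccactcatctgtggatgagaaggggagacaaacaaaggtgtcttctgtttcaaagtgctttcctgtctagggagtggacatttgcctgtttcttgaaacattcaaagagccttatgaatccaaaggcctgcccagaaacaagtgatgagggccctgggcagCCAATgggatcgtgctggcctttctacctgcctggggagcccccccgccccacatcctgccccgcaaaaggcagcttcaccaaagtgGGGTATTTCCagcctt

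The windows of HLA-B and HLA-C were near copies, with 269 identical positions in 304 aligned columns, or 88.5%. Both held the interferon motif, 155 bases before the start in HLA-B and 151 in HLA-C, as well as TGACG and several copies of CCAAT. The kappaB motif, GGGGATTCCC in HLA-B, was matched 177 bases before its start and not in the HLA-C window. B2M held 2 interferon motifs, 1 kappaB motif, 1 TGACG and 1 CCAAT. TAP1 held 2 interferon motifs and the kappaB match GGGACTTTCC, and TAP2 held 2 interferon motifs and TGACG but no kappaB match. TAPBP, not printed, held 2 interferon motifs and GGGGATTTCC. CD74 had no interferon motif here, with CCAAT 53 bases before its start and the kappaB match GGGTATTTCC 34 bases after it. In all, the interferon motif was matched in 6 of 7 of these promoters and in 22.8% of all 35116 promoters of the table, and the kappaB motif in 5 of 7 and in 5.68%. CCAAT was matched in 5 of 7 and 34.6%, and TGACG in 4 of 7 and 24.6%. A match describes the letters only, and a missing one says only that they are not in this window.

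In the deposited counts of the 12 libraries the class I heavy chains were among the most abundant transcripts and the light chain was not. Per kilobase of exon, HLA-B averaged 219.7 CPM, which ranked 168 of 13119 tested protein-coding genes. HLA-C averaged 153 and HLA-E 114 CPM per kilobase, at ranks 256 and 345. Of the exon bases of HLA-B 18.9% overlap other genes, mostly AL671883.2 on the opposite strand, which had 0 counts in every library. Whether counting used strand is not given, so the HLA-B counts carry a doubt there. TAPBP averaged 21.2, TAP1 12.9, TAP2 4.24, NLRC5 1.28 and CD74 1.15 CPM per kilobase. B2M averaged 2.05 CPM per kilobase, at rank 8135, and 5.18 CPM per kilobase of its longest transcript, at rank 6337. Its counts ran from 110 to 278 per library, and 0% of the 50-base stretches of its transcripts occurred in another gene. Whether the counting took in all reads of B2M was not tested, so its level and the ratios to it below hold for the deposited counts only.

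**Figure D1:**
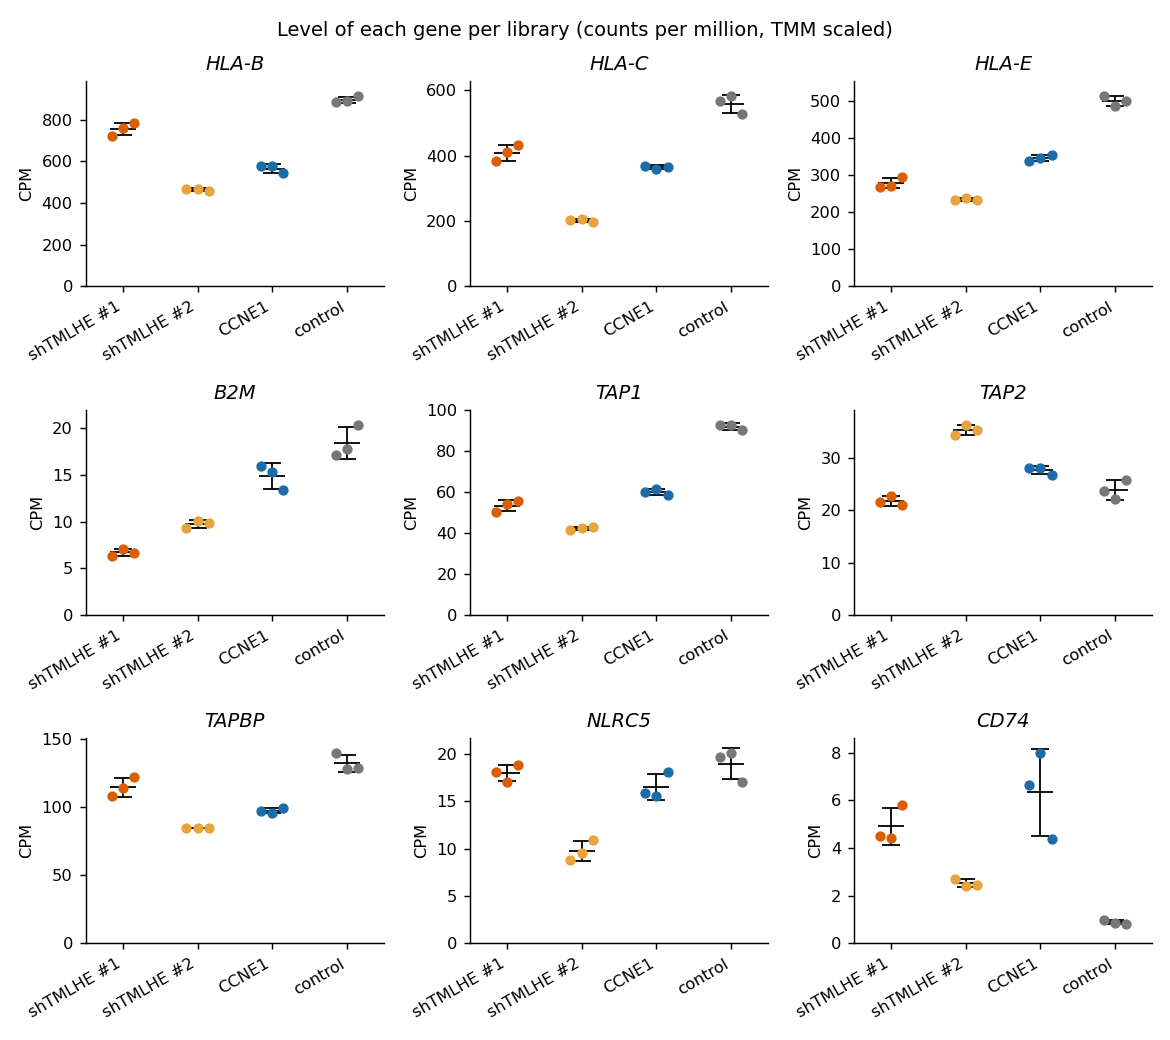
Level of each of the 9 genes in CPM (vertical axes, from 0) in every library, with points for libraries and bars for mean and SD of 3. Control libraries sit above all others for HLA-B, HLA-C, HLA-E, B2M, TAP1 and TAPBP, below all others for CD74, and TAP2 is highest with shTMLHE #2.

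With CCNE1 overexpression the heavy chains, TAP1 and tapasin were lower than in control and CD74 was higher. Of the 9 genes, 1 was higher and 5 were lower at an adjusted p under 0.05, and 3 did not pass. Among all tested genes 44.2% passed in this comparison, 25.1% higher and 19.1% lower. The median log2 fold change of the 9 genes was -0.44, beside 0.05 over all tested genes. All p-values below are from edgeR's quasi-likelihood test with Benjamini-Hochberg adjustment over the 15378 genes.

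HLA-B had 579, 576 and 543 CPM with CCNE1, against 886, 888 and 913 CPM in control. Every CCNE1 library was below every control library, and the log2 fold change was -0.66 ± 0.03 (SE, adjusted p = 9.07e-19). HLA-C had 369, 358 and 365 CPM with CCNE1, against 565, 581 and 527 CPM in control. Its groups did not overlap, and it fell by 0.62 ± 0.04 on the log2 scale (adjusted p = 8.61e-16). HLA-E had 338, 347 and 355 CPM with CCNE1, against 513, 488 and 499 CPM in control, again without overlap. It fell by 0.53 ± 0.04 (adjusted p = 9.44e-15), so that the 3 heavy chains fell by similar amounts. Of the 5 other tested genes of the heavy and light chain list 0 rose and 4 fell, with a median of -0.51 over these 5. They include HLA-F at -0.46 ± 0.10 and FCGRT, the neonatal Fc receptor chain, at -2.98 ± 0.57. FCGRT was low on both sides, at 1 to 12 counts per library with CCNE1 and 38 to 65 in control.

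By TMM the light chain moved less clearly than the heavy chains. B2M had 16.0, 15.3 and 13.4 CPM with CCNE1, against 17.2, 17.8 and 20.4 CPM in control. The groups did not overlap, but its log2 fold change of -0.31 ± 0.13 missed the threshold at an adjusted p of 0.0516. It passed in 11 of the 19 alternatives tried, with values from -0.60 to -0.23. HLA-B ran from -0.69 to -0.49 over these alternatives, HLA-C from -0.65 to -0.49 and HLA-E from -0.55 to -0.34. With single libraries left out B2M stayed between -0.36 and -0.23, so its -0.60 came from another setting. The range of B2M overlaps those of the heavy chains, so these alternatives do not settle which fell more. Within each library the summed counts of HLA-B, HLA-C and HLA-E were 86.1 ± 7.07 per B2M count with CCNE1 and 106 ± 9.95 in control. This ratio keeps a trend of fold changes with GC content. In this comparison their median was 0.43 in the fifth of genes lowest in GC, where B2M lies. It was -0.18 in the fifth that holds HLA-E and -0.09 in the highest, with HLA-B and HLA-C.

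The subunits of the peptide transporter parted. TAP1 had 60.0, 61.4 and 58.5 CPM with CCNE1, against 92.6, 92.6 and 89.8 CPM in control, and fell by 0.61 ± 0.06 (adjusted p = 6.07e-11). TAP2 had 28.1, 28.1 and 26.7 CPM with CCNE1, against 23.6, 22.1 and 25.8 CPM in control. All CCNE1 libraries were above the control libraries for TAP2, yet its log2 fold change of 0.21 ± 0.09 missed the threshold at an adjusted p of 0.0572. The ratio of TAP1 to TAP2 counts, which needs no scaling between libraries, was 2.17 ± 0.0314 with CCNE1 and 3.87 ± 0.359 in control. These groups did not overlap, and the two-sided exact permutation p was 0.10, the smallest that 3 against 3 libraries can give. Counts of TAP2 carry a doubt, since 31.3% of its 50-base stretches also occur in the readthrough gene AL669918.1, which had 0 counts in every library. TAP1 has 9.49% of its exon bases opposite PSMB8-AS1, an antisense gene at 1 to 20 counts per library, and whether counting used strand is not given.

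Tapasin followed the heavy chains. TAPBP had 97.4, 95.6 and 99.3 CPM with CCNE1, against 139.6, 128 and 129 CPM in control, and fell by 0.44 ± 0.05 (adjusted p = 3.13e-09). Of the 8 other tested genes of peptide loading and class I folding 1 rose and 4 fell (median -0.15). Calnexin, which folds new heavy chains, was the one that rose (CANX, 0.63 ± 0.03). CALR, the calreticulin of the loading complex, fell by 0.27 ± 0.03, and its partner PDIA3 fell by 0.33 ± 0.04. In the list of peptide supply, 11 other genes were tested, of which 3 rose and 2 fell (median -0.04). PSMB8, a catalytic subunit of the immunoproteasome, fell by 0.31 ± 0.06, and PSME1 of the proteasome activator fell by 0.21 ± 0.04, or by 0.03 once each library's trend of counts with GC and length was taken out.

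NLRC5 had 15.9, 15.6 and 18.1 CPM with CCNE1, against 19.7, 20.1 and 17.1 CPM in control. The groups overlapped, and its log2 fold change was -0.20 ± 0.12 (adjusted p = 0.184). Among 13 other tested regulators of class I and class II genes 3 rose and 3 fell (median -0.05), among them RELA at -0.16 ± 0.04, which turned to 0.02 without that trend. Of the 12 genes of interferon gamma receptor signalling 4 rose and 2 fell (median 0.15), and of 10 tested targets of interferon gamma 1 rose and 3 fell (median -0.33), with ICAM1 at -0.96 ± 0.07 and GBP1 at -1.02 ± 0.24.

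CD74 was the gene of the 9 that rose. It had 6.65, 7.98 and 4.37 CPM with CCNE1, against 0.976, 0.872 and 0.828 CPM in control. In counts these were 89, 145 and 69 with CCNE1 and 14, 11 and 10 in control, so the level stayed low on both sides. The log2 fold change was 2.82 ± 0.30, or 7.04-fold (adjusted p = 6.11e-10), and it was between 1.22 and 3.02 in all 19 alternatives, lowest on log2(FPKM + 1), which understates the change of a low gene. The other class II genes did not follow it. Of 12 others tested 0 rose and 8 fell, with a median of -0.63 beside 0.05 over all genes and the same counts under total counts, among them HLA-DRB1 at -0.63 ± 0.07, HLA-DQB1 at -0.90 ± 0.09, and the lysosomal proteases CTSB at -1.08 ± 0.04 and LGMN at -0.89 ± 0.07. CIITA had 3, 4 and 4 counts with CCNE1, against 22, 11 and 17 counts in control, and its log2 fold change was -2.42 ± 0.59 (adjusted p = 9.35e-04). HLA-DRA, the partner chain of HLA-DRB1, was under the filter with 0, 0 and 3 counts with CCNE1 and 0, 2 and 2 in control, although HLA-DRB1 had 63.1 ± 5.29 CPM with CCNE1 and 97.7 ± 5.06 CPM in control. HLA-DRB1 and HLA-DQB1 have near copies in the genome, which makes their counts uncertain.

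Markers of professional antigen-presenting cells were low throughout. The 15 leukocyte markers summed to 6.21 to 10.5 CPM with CCNE1 and 10.5 to 12.3 CPM in control, 3 of 15 were tested and 0 of these passed, and MS4A1 and TYROBP were at 0 in all 12 libraries. CSF1R, a growth factor receptor of macrophages, had 10, 16 and 5 counts with CCNE1, against 1, 7 and 0 counts in control (1.62 ± 0.81, adjusted p = 0.101). With shTMLHE #1 it had 15, 10 and 16 counts and was higher than in control (1.88 ± 0.78, adjusted p = 0.0326), as CD74 was, while ITGAX, an integrin of dendritic cells, was lower there (-0.57 ± 0.23). All groups came from the same cultured line. The leukocyte marker PTPRC had 0 counts in control, with CCNE1 alone and with shTMLHE #1, and at most 2 per library with shTMLHE #2. Bulk counts alone cannot tell fewer cells of a type from less RNA per cell.

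**Figure D2:**
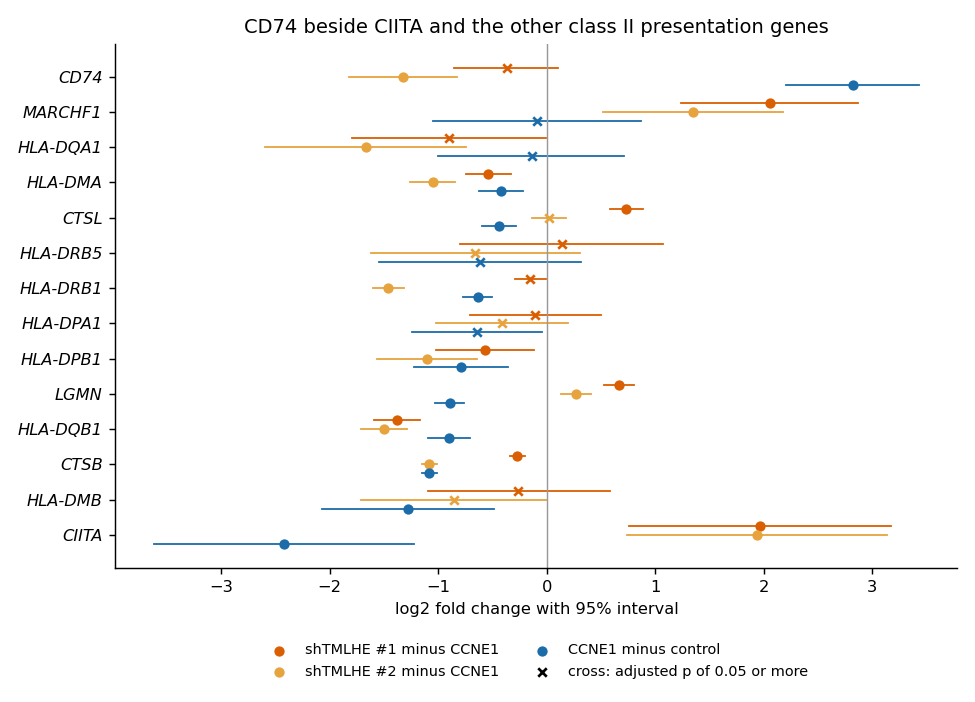
Log2 fold changes (horizontal axis, with 95% intervals) of CD74, CIITA and 12 other class II genes, one colour per comparison, with crosses where the adjusted p was 0.05 or more. CD74 stands at 2.82 and CIITA at -2.42 for CCNE1 minus control, and no other class II gene passed on the higher side in that comparison.

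Each hairpin was then compared with CCNE1 overexpression alone, and both of these comparisons share the 3 CCNE1 libraries. Their scaling and base composition weigh on the values. TMM put the median log2 fold change of all tested genes at 0.03 for either hairpin, while scaling by total counts put it at 0.43 for shTMLHE #1 and 0.56 for shTMLHE #2. Fold changes also followed GC content. With shTMLHE #2 the median was 1.07 in the fifth of genes lowest in GC, where B2M lies, and -1.08 in the fifth highest in GC, where HLA-B, HLA-C and CD74 lie. With shTMLHE #1 these medians were 0.49 and -0.38. A fit from which each library's GC and length trend was removed is therefore given beside the calls. What part of the trend is technical was not tested.

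With shTMLHE #1, HLA-B, HLA-C and tapasin were higher than with CCNE1 alone and B2M was lower, at 0.450-fold. Of the 9 genes 3 were higher and 4 were lower, where 60.7% of all tested genes passed, 30.4% higher and 30.3% lower. Scaling by total counts gave 5 higher and 1 lower, and removing the GC and length trend gave 3 and 3. The median over the 9 genes was -0.17, beside 0.03 over all genes. With shTMLHE #2, 1 was higher and 8 were lower, where 73.0% of all genes passed, 36.8% higher and 36.2% lower. Total counts gave 3 higher and 2 lower there, and removing the GC and length trend gave 3 and 3. The median was -0.56, beside 0.03 over all genes. With most genes of these cells called, the number called is read as no result about these 9, and the values of each gene follow.

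HLA-B had 724, 759 and 783 CPM with shTMLHE #1 and 466, 469.6 and 457 CPM with shTMLHE #2, against 579, 576 and 543 CPM with CCNE1 alone. The CCNE1 libraries lay between both hairpin groups, without overlap. With shTMLHE #1 it rose by 0.42 ± 0.03 (adjusted p = 7.93e-14), and it was higher and past the threshold in all 19 alternatives, from 0.39 to 0.89. With shTMLHE #2 it fell by 0.29 ± 0.03 (adjusted p = 9.43e-10), but its sign turned to 0.24 under total counts and to 0.66 with GC and length trends taken out. HLA-B remained below control in both hairpin groups by TMM, at -0.25 ± 0.03 with shTMLHE #1 and -0.95 ± 0.03 with shTMLHE #2. Both signs turned with the trend removed, to 0.40 and 0.16, and the first also under total counts, to 0.13.

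HLA-C had 382, 409.9 and 431 CPM with shTMLHE #1 and 202, 206 and 196 CPM with shTMLHE #2, against 369, 358 and 365 CPM with CCNE1 alone. It was slightly higher with shTMLHE #1 (0.16 ± 0.04, adjusted p = 4.72e-04), in all 19 alternatives with values from 0.12 to 0.68. With shTMLHE #2 it fell by 0.85 ± 0.04 (adjusted p = 3.13e-21), except that removing the GC and length trend gave 0.31. The ratio of HLA-B to HLA-C counts was 1.85 ± 0.0374 with shTMLHE #1, 2.31 ± 0.0241 with shTMLHE #2, 1.55 ± 0.0644 with CCNE1 alone and 1.61 ± 0.108 in control. Both hairpin groups lay above all CCNE1 and control libraries in this ratio, each at an exact permutation p of 0.10 against CCNE1, the smallest possible. Of the 50-base stretches of HLA-B transcripts 2.72% occurred in other genes, mostly HLA-C, and of those of HLA-C 5.38%, in HLA-B among others.

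HLA-E had 269, 272 and 294 CPM with shTMLHE #1 and 233, 238 and 233 CPM with shTMLHE #2, against 338, 347 and 355 CPM with CCNE1 alone. It was the heavy chain lower with either hairpin, by 0.32 ± 0.04 with shTMLHE #1 (adjusted p = 1.16e-09) and 0.56 ± 0.04 with shTMLHE #2 (adjusted p = 1.06e-16). Total counts gave 0.07 and -0.03, neither of which passed. As a share of the counts of the 3 heavy chains, HLA-E took 18.9 to 19.6% with shTMLHE #1 and 25.9 to 26.3% with shTMLHE #2, against 26.3 to 28.1% with CCNE1 alone.

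B2M had 6.36, 7.08 and 6.66 CPM with shTMLHE #1 and 9.29, 10.1 and 9.87 CPM with shTMLHE #2, against 16.0, 15.3 and 13.4 CPM with CCNE1 alone. All 6 hairpin libraries were below all CCNE1 libraries. The log2 fold change was -1.15 ± 0.14 with shTMLHE #1 (adjusted p = 2.68e-09), and it passed in all 19 alternatives, from -1.32 to -0.73. With shTMLHE #2 it was -0.61 ± 0.13 (adjusted p = 8.04e-05), -1.20 with the trend removed, and -0.08 under total counts, where it did not pass. Heavy chain counts per B2M count were 215 ± 11.5 with shTMLHE #1 and 92.3 ± 4.00 with shTMLHE #2, against 86.1 ± 7.07 with CCNE1 alone. The shTMLHE #1 libraries, at 203 to 226, lay above all other 9 libraries, which ran from 80.5 to 114. The exact permutation p was 0.10 for shTMLHE #1 and 0.30 for shTMLHE #2 against CCNE1. This ratio sets genes high in GC against one low in GC, and with the trend removed shTMLHE #2 minus CCNE1 was 0.66 for HLA-B, 0.31 for HLA-C and -0.12 for HLA-E beside -1.20 for B2M, which is a higher ratio of heavy chains to B2M.

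**Figure D3:**
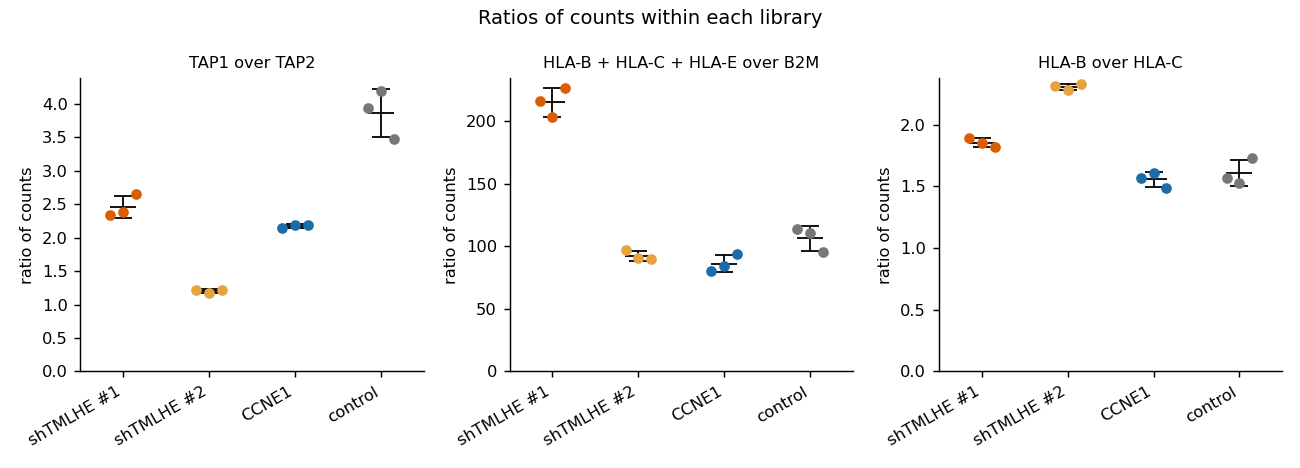
Ratios of counts within each library (vertical axes, from 0), with points for libraries and bars for mean and SD of 3. TAP1 over TAP2 is 1.20 with shTMLHE #2 and 3.87 in control, heavy chains over B2M reach 215 with shTMLHE #1, and HLA-B over HLA-C is above the CCNE1 and control groups with either hairpin.

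TAP1 had 50.2, 54.0 and 55.5 CPM with shTMLHE #1 and 41.5, 42.4 and 42.9 CPM with shTMLHE #2, against 60.0, 61.4 and 58.5 CPM with CCNE1 alone. With shTMLHE #1 its log2 fold change was -0.17 ± 0.06 (adjusted p = 0.0127), a call lost without the first shTMLHE #1 library (-0.13, adjusted p = 0.0867), by upper quartile scaling (-0.09) and with no filter (-0.16), and its sign turned under total counts (0.22) and with the trend removed (0.02). With shTMLHE #2 it was -0.51 ± 0.06 (adjusted p = 1.49e-09), and these same settings gave 0.02 and 0.12. TAP2 had 21.5, 22.7 and 20.9 CPM with shTMLHE #1 and 34.4, 36.3 and 35.2 CPM with shTMLHE #2, against 28.1, 28.1 and 26.7 CPM with CCNE1 alone. It was lower with shTMLHE #1 (-0.35 ± 0.09, adjusted p = 0.00105, but 0.05 under total counts) and higher with shTMLHE #2 (0.35 ± 0.09, adjusted p = 3.53e-04, but 0.08 and not past the threshold with the trend removed). The ratio of TAP1 to TAP2 counts was 2.46 ± 0.170 with shTMLHE #1 and 1.20 ± 0.0256 with shTMLHE #2, against 2.17 ± 0.0314 with CCNE1 alone. None of these groups overlapped, each at an exact permutation p of 0.10. Such a ratio needs no scaling but keeps the GC trend, and the longest transcript of TAP1 holds 57.5% GC and that of TAP2 49.1%. With the trend removed, shTMLHE #2 minus CCNE1 was 0.12 for TAP1 and 0.08 for TAP2, so the lower ratio with shTMLHE #2 was not seen in that fit, while with shTMLHE #1 the values were 0.02 and -0.60. Of the 11 other tested genes of peptide supply 2 rose and 5 fell with shTMLHE #1, and 4 rose and 6 fell with shTMLHE #2. Total counts gave 6 and 4 for shTMLHE #1 and 5 and 4 for shTMLHE #2. With the trend removed 1 rose and 6 fell with shTMLHE #1 (median -0.50, against 0.01 by TMM), and 0 rose and 6 fell with shTMLHE #2. PSMB8 was at -0.74 ± 0.06 with shTMLHE #1 and -1.61 ± 0.07 with shTMLHE #2, and PSME1 was at -0.97 ± 0.04 with shTMLHE #1 and -1.21 ± 0.04 with shTMLHE #2, and all 4 values stayed below 0 under total counts and with the trend removed.

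TAPBP had 108, 114 and 122 CPM with shTMLHE #1 and 84.6, 84.5 and 85.0 CPM with shTMLHE #2, against 97.4, 95.6 and 99.3 CPM with CCNE1 alone. It was higher with shTMLHE #1 (0.24 ± 0.05, adjusted p = 1.05e-04), in all 19 alternatives with values from 0.19 to 0.63. With shTMLHE #2 it was lower (-0.20 ± 0.05, adjusted p = 5.58e-04), a call lost by upper quartile scaling (-0.09), and its sign turned under total counts (0.33) and with the trend removed (0.32). Of the 8 other tested genes of loading and folding 5 rose and 1 fell with shTMLHE #1, or 2 and 2 with the trend removed, with CALR at 0.34 ± 0.03. With shTMLHE #2, 4 rose and 3 fell, or 3 and 5 with the trend removed, with CANX at 0.59 ± 0.03, which turned to -0.15 with the trend removed. BCAP31, an export receptor of the endoplasmic reticulum, fell by 0.39 ± 0.04 with shTMLHE #1, a value of 0.03 with the trend removed, and by 1.06 ± 0.04 with shTMLHE #2.

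NLRC5 had 18.1, 17.1 and 18.8 CPM with shTMLHE #1 and 8.84, 9.56 and 10.9 CPM with shTMLHE #2, against 15.9, 15.6 and 18.1 CPM with CCNE1 alone. The shTMLHE #1 and CCNE1 libraries overlapped (0.13 ± 0.12, adjusted p = 0.371), and the shTMLHE #2 libraries lay below all others. Its log2 fold change with shTMLHE #2 was -0.76 ± 0.12 (adjusted p = 7.99e-07), with all 19 alternatives below 0, from -0.84 to -0.24, and total counts the one that did not pass. Regulators listed beside it went both ways. RFXANK, a subunit of the RFX complex that binds class I and class II promoters, was at -0.63 ± 0.06 with shTMLHE #1 and -1.81 ± 0.06 with shTMLHE #2. NFYB, a subunit of the factor that binds CCAAT, was at 1.10 ± 0.12 with shTMLHE #1 and 1.71 ± 0.12 with shTMLHE #2. RFXANK stayed below 0 and NFYB above 0 under total counts and with the trend removed. Of 13 such other regulators tested, 5 rose and 2 fell with shTMLHE #1 (median 0.04), and 8 rose and 2 fell with shTMLHE #2 (median 0.43). Total counts gave 11 and 1 for shTMLHE #1 (median 0.43) and 10 and 2 for shTMLHE #2 (median 0.96), and removal of the trend gave 5 and 3 for shTMLHE #1 and 6 and 3 for shTMLHE #2 (median 0.13). Of 12 genes of interferon gamma receptor signalling 10 rose and 0 fell with each hairpin, with medians of 0.55 for shTMLHE #1 and 0.74 for shTMLHE #2 beside 0.03 over all genes. With the trend removed, 8 rose with shTMLHE #1 and 7 with shTMLHE #2, and again 0 fell. Among them was IRF1 at 1.12 ± 0.12 with shTMLHE #1, which stayed above 0 with the trend removed. Of 10 tested interferon gamma targets 2 rose and 3 fell with shTMLHE #1 (median -0.15), and 3 rose and 4 fell with shTMLHE #2 (median -0.25). Under total counts both medians turned, with 4 higher and 1 lower for shTMLHE #1 (median 0.24) and 4 higher and 2 lower for shTMLHE #2 (median 0.27). With the trend removed these targets gave 1 and 2 for shTMLHE #1 and 3 and 4 for shTMLHE #2.

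CD74 had 4.49, 4.42 and 5.81 CPM with shTMLHE #1 and 2.71, 2.40 and 2.47 CPM with shTMLHE #2, against 6.65, 7.98 and 4.37 CPM with CCNE1 alone. The shTMLHE #1 libraries overlapped the CCNE1 libraries, with a log2 fold change of -0.37 ± 0.24 (adjusted p = 0.172). Without the third CCNE1 library, the lowest of its group, it was -0.58 and passed (adjusted p = 0.0336). With shTMLHE #2 it was -1.32 ± 0.25 (adjusted p = 8.88e-06), and -0.43 with the trend removed, where it did not pass (adjusted p = 0.125). CD74 stayed above control in both hairpin groups, at 2.44 ± 0.30 with shTMLHE #1 (adjusted p = 4.90e-09) and 1.49 ± 0.32 with shTMLHE #2 (adjusted p = 6.55e-05), as it did in all 19 alternatives. Of the 12 other tested class II genes 3 rose and 4 fell with shTMLHE #1 (median -0.20, or 5 and 1 under total counts), and 2 rose and 6 fell with shTMLHE #2 (median -0.95). With the trend removed this was 4 and 4 for shTMLHE #1 and 2 and 8 for shTMLHE #2. HLA-DRB1 had 56.9 ± 1.68 CPM with shTMLHE #1, 23.0 ± 1.96 CPM with shTMLHE #2 and 63.1 ± 5.29 CPM with CCNE1 alone. CIITA had 20, 13 and 16 counts with shTMLHE #1 and 18, 20 and 19 counts with shTMLHE #2, against 3, 4 and 4 counts with CCNE1 alone, and rose with each (1.96 ± 0.60, adjusted p = 0.00447, and 1.94 ± 0.59, adjusted p = 0.00362). The 15 leukocyte markers summed to 6.85 to 8.72 CPM with shTMLHE #1 and 3.81 to 4.52 CPM with shTMLHE #2, against 6.21 to 10.5 CPM with CCNE1 alone, with ITGAX at -1.29 ± 0.25 with shTMLHE #2. Their part in the CD74 values was not tested.

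The hairpins were also set against each other, which removes the shared baseline. With shTMLHE #1 relative to shTMLHE #2, 7 of the 9 genes were higher and 2 were lower, where 60.3% of all tested genes passed, 31.3% higher and 29.0% lower. With the trend removed this was 3 higher and 2 lower. By TMM HLA-C differed most of the 9, at 408 ± 24.3 CPM with shTMLHE #1 and 201 ± 4.75 CPM with shTMLHE #2 (log2 fold change 1.02 ± 0.04, adjusted p = 3.69e-23). HLA-B was at 0.70 ± 0.03, NLRC5 at 0.89 ± 0.12 and TAP2 at -0.70 ± 0.09, and each of these and HLA-C passed in the same direction in all 19 alternatives. HLA-E (0.24 ± 0.04) and TAP1 (0.33 ± 0.06) turned to -0.08 and -0.10 with the trend removed.

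**Figure D4:**
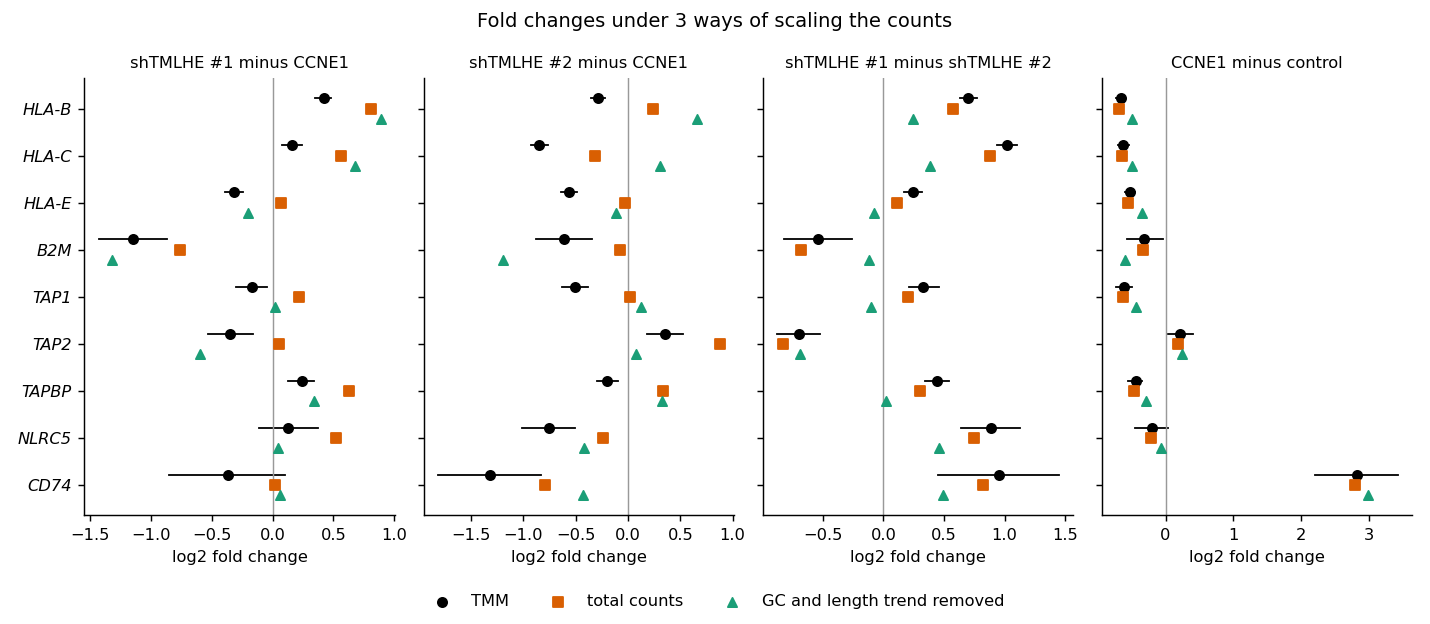
Log2 fold changes (horizontal axes) of the 9 genes in 4 comparisons, from TMM scaling with its 95% interval (circles), total counts (squares) and a fit that takes out GC and length trends (triangles). For CCNE1 minus control the 3 settings stay on one side of 0 for each gene, and for shTMLHE #2 minus CCNE1 they fall on both sides for HLA-B, HLA-C, TAP1 and TAPBP.

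Relative to control, 1 of the 9 genes was higher and 6 were lower with shTMLHE #1, where 68.7% of all tested genes passed, 35.3% higher and 33.4% lower. Total counts gave 5 higher and 3 lower there, and removing the trend gave 3 and 4. With shTMLHE #2, 2 were higher and 7 were lower, where 78.1% of all genes passed, 39.0% higher and 39.1% lower, and removing the trend gave 3 and 5. By TMM level, control was highest and shTMLHE #2 lowest for HLA-B, HLA-C, HLA-E, TAP1 and TAPBP, with every neighbouring pair of groups past the threshold. For HLA-B, HLA-C and TAPBP the shTMLHE #1 group ranked above CCNE1 alone, and for HLA-E and TAP1 below it. For B2M the order from the top was control, CCNE1 alone, shTMLHE #2 and shTMLHE #1, and the first pair did not differ past the threshold. For TAP2 it was shTMLHE #2, CCNE1 alone, control and shTMLHE #1, where control passed against neither CCNE1 alone nor shTMLHE #1 (-0.13 ± 0.09, adjusted p = 0.202). For NLRC5, control, shTMLHE #1 and CCNE1 alone were not set apart from one another, with shTMLHE #2 below them. For CD74, CCNE1 alone and shTMLHE #1 were not set apart, followed by shTMLHE #2 and then control.

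The genes whose levels ran most like each of the 9 were sought, by Pearson correlation of log2 CPM over the 12 libraries, among the 11684 tested genes whose mean log2 CPM reached 1. These libraries form 4 groups, so the measure rests mainly on 4 group levels, and no p is given. The closest gene was MMP14 for HLA-B (r = 0.986), TM9SF4 for HLA-C (r = 0.997), NFS1 for HLA-E (r = 0.997) and NDUFV3 for B2M (r = 0.993). It was MRC2 for TAP1 (r = 0.997), ARMC1 for TAP2 (r = 0.986), OLFML3 for TAPBP (r = 0.984), OSBP2 for CD74 (r = 0.979) and SBNO2 for NLRC5 (r = 0.983). None of these 9 nearest genes belongs to the 9 described here, though some pairs of the 9 ran nearly as close. HLA-E and TAP1 were at r = 0.987, HLA-B and TAPBP at 0.981 and HLA-B and HLA-C at 0.937. Other pairs ran apart, such as HLA-B and B2M at 0.233 and TAP2 and NLRC5 at -0.916.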

How the data were processed

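RNA of 12 Ovcar8 libraries was sequenced. Per the labels' protocols, extraction used Trizol, a column and DNase, and libraries were made with a NEBNext Ultra 2 RNA kit. The deposited counts are whole reads per gene that the authors left without normalization, and the FPKM deposited by the authors divide these by exon length and by a library size that, from the values, was 0.819 to 1.21 times the total count, so they were already scaled between libraries, and they serve here as an alternative only. STAR 2.6.1, DESeq2 and the build GRCh38 are named per the submitters' processing notes. Not given in the sources used here are the counting program, its strand setting and how it treated reads with several matches. HLA genes are polymorphic, and how reads of the line's own alleles aligned to the reference was not tested. Exon lengths in the count table equalled those of GENCODE 29 for 100% of genes, which gave GC content, coordinates and shared 50-base stretches.

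Counts were tested in R 4.3.3 with edgeR 4.0.16 (filterByExpr by group, TMM, robust quasi-likelihood, 1 mean per group over 12 libraries, 8 residual degrees of freedom). P-values were adjusted by Benjamini-Hochberg over 15378 genes, with calls at an adjusted p under 0.05. CPM used TMM-scaled library sizes. SE are of the log2 fold change, and 95% intervals use the same fit. The tests were checked on simulated counts in which few genes changed, equally in both directions. That simulation did not check the scaling where most genes change. Ratios of counts within libraries were compared by exact two-sided permutation, in 18 comparisons whose adjusted p ran no lower than 0.120. Intervals cover the spread between libraries only.

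The 9 genes and the 12 lists were chosen with earlier results of these data known. Named beside them are CCNE1, TMLHE, CIITA, HLA-DRA, at most 4 genes of each list by smallest p, and the gene nearest to each of the 9 by correlation. Some genes of the lists are not reported here. Alternatives were RLE and upper quartile factors, total counts, other filters, DESeq2 1.42.0, limma-voom, a fit of only the compared groups, a replicate block, removal of GC and length trends by library (natural splines), both together, limma-trend on FPKM on the log2 scale with pseudocounts of 0.1 and 1, and each library left out. Where 1 group is left with 2 libraries, its spread is pooled with that of the other groups. Pairs of replicates differed by more than counting noise, with a chi-square per degree of freedom of 2.09 to 5.63. Endothelial markers (4 genes) summed to 3.30 CPM at most in any library. Fibroblast markers (4 genes) summed to 611 to 640.1 CPM with CCNE1 alone and 900.2 to 967 CPM in control. They summed to 1535 to 1628 CPM with shTMLHE #1 and 1257 to 1296 CPM with shTMLHE #2. Of these markers COL1A1 was at -0.54 ± 0.03 with CCNE1 relative to control. Relative to CCNE1 alone, COL1A1 was at 1.36 ± 0.03 with shTMLHE #1 and 1.02 ± 0.03 with shTMLHE #2. PDGFRB was at -1.21 ± 0.09, 0.83 ± 0.09 and 1.08 ± 0.09 in the same comparisons, in that order. LUM was under the filter, and DCN was at 0 throughout.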

Additional observations from a re-analysis of the deposited data

Results flagged for a closer look

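With TMM scaling all 9 genes passed edgeR's quasi-likelihood test of shTMLHE #1 minus shTMLHE #2, and 5 of them passed in the fit without GC and length trends. By TMM the log2 differences were 0.70 for HLA-B, 1.02 for HLA-C, 0.24 for HLA-E, -0.54 for B2M, 0.33 for TAP1, -0.70 for TAP2, 0.44 for TAPBP, 0.95 for CD74 and 0.89 for NLRC5. Among all tested genes 60.3% passed this test. In that second fit B2M (-0.12), TAPBP (0.02) and CD74 (0.49) no longer passed, and HLA-E and TAP1 turned to -0.08 and -0.10. TMLHE itself was at 0.956 ± 0.286 CPM with shTMLHE #1 and 0.482 ± 0.241 CPM with shTMLHE #2 (adjusted p = 0.0154, libraries overlapping), and CCNE1 at 1269 ± 49.0 CPM with shTMLHE #1 and 847 ± 21.2 CPM with shTMLHE #2 (adjusted p = 3.13e-18). The part of these levels and of the trend in the differences was not tested.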

How the results depend on the processing

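Over 9 genes, 6 comparisons and 19 alternatives, 952 values kept direction and call, 18 lost the call, 18 gained it and 38 changed sign. The sign changes came with total counts, upper quartile scaling or removal of the GC and length trend, and the cause was not tested beyond the shift of the median that total counts bring by construction. Under total counts, shTMLHE #1 minus CCNE1 gave 0.07 for HLA-E, 0.22 for TAP1, 0.05 for TAP2 and 0.02 for CD74. For shTMLHE #2 minus CCNE1 it gave 0.24 for HLA-B, 0.02 for TAP1 and 0.33 for TAPBP, with 5 of the 9 genes called. For shTMLHE #1 minus control it gave 0.13 for HLA-B, 0.24 for TAP2, 0.17 for TAPBP and 0.30 for NLRC5, and upper quartile scaling gave 0.00 for NLRC5. Removal of the trend gave, for shTMLHE #1 minus CCNE1, 0.02 for TAP1 and 0.06 for CD74 (0.02 and 0.08 with the replicate block as well). For shTMLHE #2 minus CCNE1, with and without the block, it gave 0.66 for HLA-B, 0.31 for HLA-C, 0.12 for TAP1 and 0.32 for TAPBP. For shTMLHE #1 minus shTMLHE #2 it gave -0.08 for HLA-E and -0.10 for TAP1 in both fits, with 5 of the 9 genes called, or 4 with the block. Relative to control it gave 0.40 for HLA-B, 0.19 for HLA-C and 0.06 for TAPBP with shTMLHE #1 in both fits, and 0.16 for HLA-B and 0.03 for TAPBP with shTMLHE #2 (0.16 and 0.04 with the block).

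The replicate numbers paired no libraries, since same-numbered deviations correlated at -0.0465 to 0.0263 and 2 of 12 libraries correlated best with their own number. With the replicate number as a block alone, 6 genes were called for CCNE1 minus control, 7 for shTMLHE #1 and 9 for shTMLHE #2 minus CCNE1, 9 between the hairpins, and 7 and 9 relative to control, the same counts as without it. Leaving out each library in turn gave 6 to 7 genes called for CCNE1 minus control and 6 to 8 for shTMLHE #1 minus CCNE1, and changed no count in the other comparisons. At 110 to 278 counts of B2M and 10 to 145 of CD74 per library, their intervals are the widest of the 9, and changes as small as those of HLA-C with shTMLHE #1 were not detectable in them. For NLRC5 and TAP2 small changes with CCNE1 relative to control also missed the threshold. A missed call for these genes therefore does not show an unchanged level.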
